A study of Rattus norvegicus with 8 samples.

Results

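The cannabinoid receptor CB1 acts in neurons through inhibitory G proteins, and the genes described here encode the proteins that stand next to it inside the cell. They are Gprasp1 and Gprasp2, sorting proteins that bind the tails of internalised receptors, Cnrip1, a protein that binds the tail of CB1, the beta-arrestins Arrb1 and Arrb2, and the Gi/o alpha subunits Gnao1, Gnai1, Gnai2, Gnai3 and Gnaz. The 10 genes were chosen by symbol, all 10 were found among the 18003 gene symbols in the data, and they held 48 of the 98356 alternative polyadenylation (APA) sites. When an agonist occupies CB1, the Gi/o alpha subunit exchanges its nucleotide and separates from beta-gamma, adenylyl cyclase is inhibited and calcium channels close. Arrestins then bind the receptor, stop the coupling and start its removal from the membrane, and the Gprasp proteins steer receptors taken up in this way toward lysosomes. In the hypothalamus this pathway is known for presynaptic control of circuits that set appetite.

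RNA of the hypothalamus came from adult male Long-Evans rats. There were 4 libraries of rats exposed to vaporized cannabis plant matter. Another 4 were of controls that received air through the same equipment, with no plant matter loaded. The study's methods give 8 rats per group and 8 libraries in all, and do not say how the libraries were drawn from the rats. By the study's methods the rats fed freely beforehand, and food was removed for the hour before tissue collection. Tissue was collected 1 h after the exposure. The labels number the controls 1 to 4 and the cannabis-exposed rats 1, 2, 3 and 5. RNA was profiled by WTTS-Seq (Whole Transcriptome Termini Site Sequencing), a method for 3′ ends. Each read is taken to mark 1 transcript end at 1 APA site, and longer transcripts gain no extra reads. The sequence around the sites was not examined. Values are normalized counts, the reads on a site divided by the size factor of the library, and a gene total is their sum over all sites with the gene symbol. In bulk tissue, fewer cells of a type and less RNA per cell cannot be told apart.

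The reads on APA sites ranged from 1159811 to 3706778 per library, and 1 read was worth from 0.664 to 1.99 normalized counts. The members held from 0.212% to 0.265% of the reads on sites in a library. Air control replicate 4 and cannabis replicate 1 had the largest shares of sites without a read, 26.13% and 16.95%, and over all sites their deviations from the group means had a correlation of 0.289, the highest of the 16 pairs of a control and a cannabis library. Of 10 genes listed as markers of hypothalamic neurons, peptide genes and Sim1, 9 were measured, and Npy was not in the data. Their summed level, led by Avp, was from 4009 to 6049 normalized counts in controls and from 8183 to 10573 in the cannabis group. Of the 9 measured genes 2 were higher at P under 0.01 in limma, Avp and Oxt. Genes listed as markers of midbrain dopamine neurons, led by Th, summed to between 839 and 1065 normalized counts in controls. In the cannabis group their sum was between 269 and 424, with the groups apart. Of the 6 measured genes 4 were lower at P under 0.01 in limma, Slc6a3, Th, En1 and Ddc. Slc18a2 and Aldh1a1 overlapped between the groups. The paper also mentions dopamine neurons in the arcuate nucleus, and the cells behind this sum were not identified. The neuronal, oligodendrocyte, astrocyte and microglial lists overlapped between groups, with 0 genes at P under 0.01 in any of the 4 lists in limma and 0 at P under 0.05. The 4 measured endothelial genes summed to between 88.5 and 93.3 normalized counts in controls and between 109 and 123 in the cannabis group, with 0 of 4 at P under 0.01 and 0 at P under 0.05. Flt1 made up most of this sum, with means of 71.0 in controls and 95.7 in the cannabis group. Cldn5, Pecam1 and Tek had means under 10 in both groups. In the cannabis group the means of Cldn5 and Pecam1 were lower and that of Tek was higher. The part of these markers in the values below was not tested.

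The members' totals spanned a wide range. Gnai2 was the highest, with a mean of 1885 normalized counts over the 8 libraries, followed by Gprasp2 at 887, Gnao1 at 780, Cnrip1 at 426, Gprasp1 at 406, Arrb2 at 340, Arrb1 at 319.8 and Gnaz at 257. Gnai1 and Gnai3 were far lower, at 48.2 and 25.2, and Gnai3 rested on from 5 to 52 reads per library. Ends without a gene symbol enter no total. Sites with a symbol held from 83.91% to 87.95% of the reads on sites in a library. The part of ends without a symbol in this ranking, and in the shares between genes below, was not tested. Gnai2 lay above Gprasp2, Gnaz above Gnai1 and Gnai1 above Gnai3 in 8 of 8 libraries. The order of the neighbours Gprasp2 and Gnao1 held in 5 of 8 libraries. The same count held for Cnrip1 and Gprasp1, for Gprasp1 and Arrb2 and for Arrb2 and Arrb1. Levels of different genes were not tested against each other. Cnrip1 exceeded Gprasp1 in 4 of 4 controls and in 1 of 4 cannabis-exposed rats.

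**Figure D1:**
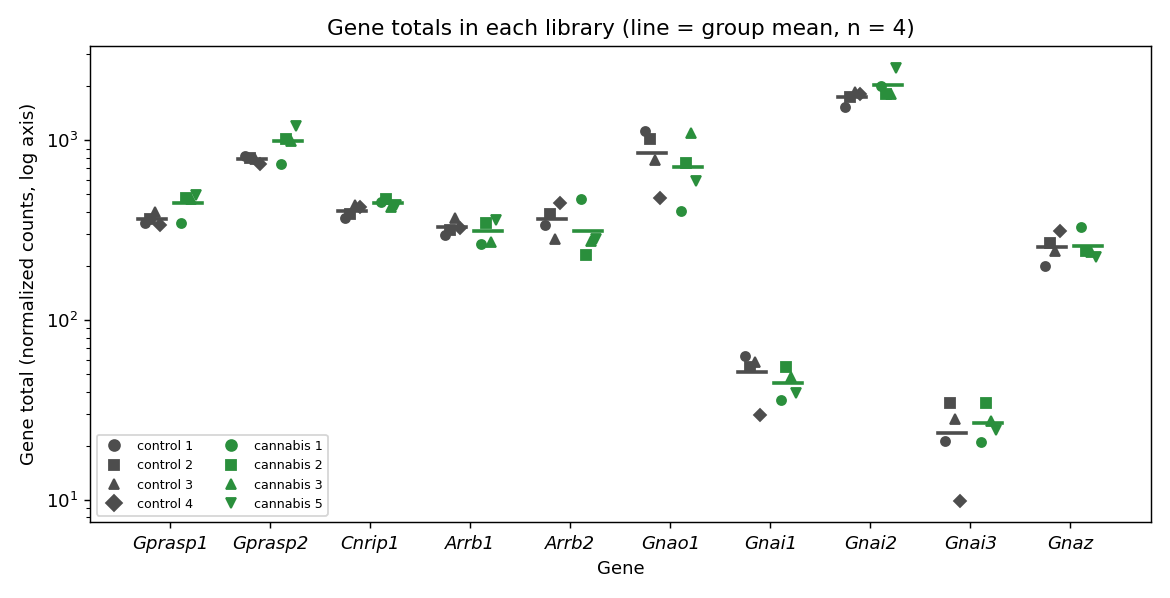
Gene totals of the 10 members in normalized counts on a log axis, with 1 symbol per library (grey for air controls, green for cannabis, shape for the replicate number) and a line at each group mean (n = 4). The groups overlap in all 10 genes, and Gnai2 lies above the other members in every library.

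Whether cannabis exposure moved the level of these genes was tested with limma on log2(normalized count + 1), fitted on all 18003 totals. None of the 10 members had P under 0.01, against 0.278% of all totals, and 0 of 10 had P under 0.05, against 2.41%. By edgeR and by DESeq2 on the recovered reads, 0 of 10 also had P under 0.01. The lowest P of a member was 0.134. Of the 10 log2 fold changes 6 were above 0, against 56.4% of all totals, and their median was 0.09, against 0.05 over all totals. In 0 of 10 members did the groups lie apart, which 1.98% of all totals did. These tests do not show that the levels were equal, since the 95% intervals were wide for 4 against 4 rats.

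**Figure D2:**
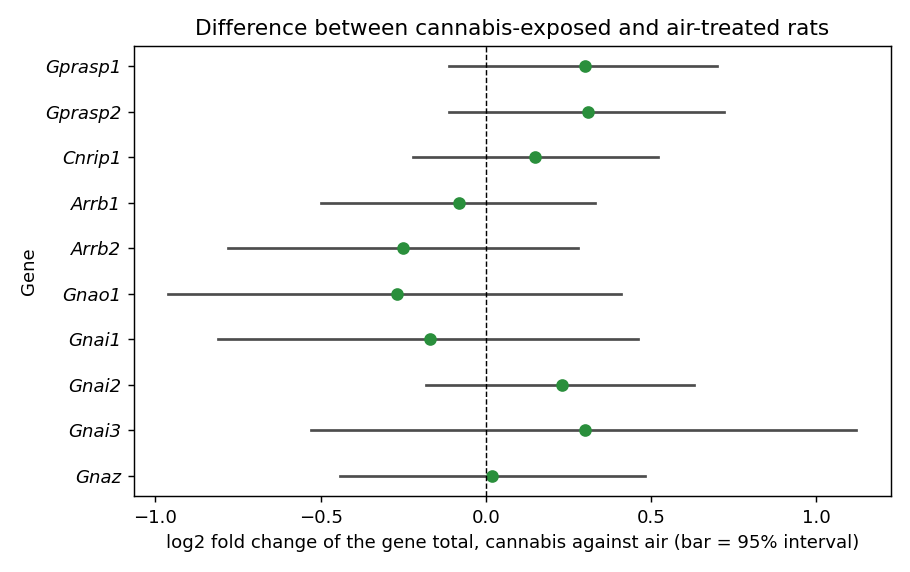
Log2 fold change of each member's total in the cannabis group against air-treated controls, from limma on log2(normalized count + 1), with the 95% interval as a bar. All 10 intervals contain 0, the narrowest for Cnrip1, from -0.22 to 0.52, and the widest for Gnai3, from -0.53 to 1.12.

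The sorting proteins Gprasp1 and Gprasp2 had the lowest limma P of the 10, and neither passed the test. By the exact permutation test Cnrip1 had the lowest P. Gprasp1 had 347, 366, 399 and 339.6 normalized counts in air control replicates 1 to 4, and 349, 476, 472 and 498 in cannabis replicates 1, 2, 3 and 5. Of the cannabis-exposed rats only replicate 1 lay within the control range. The group means were 363 ± 26.5 and 449 ± 67.7 (SD, n = 4), or 0.30 on the log2 scale (SE 0.19, 95% interval -0.11 to 0.70, limma P = 0.142 and adjusted P = 0.999; exact permutation test, P = 0.0857).

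Gprasp2, whose product belongs to the same family of receptor-binding proteins, had 814, 799.7, 792 and 743 normalized counts in controls and 743, 1015, 986 and 1207 in the cannabis group, where again only replicate 1 was not above the controls. The means of 787 ± 30.8 and 988 ± 190.4 (SD, n = 4) gave a log2 fold change of 0.31 (SE 0.19, 95% interval -0.11 to 0.72, limma P = 0.134 and adjusted P = 0.999; exact permutation test, P = 0.143). Without air control replicate 4 and cannabis replicate 1, an alternative chosen after seeing the data, the log2 fold changes were 0.38 for Gprasp1 and 0.41 for Gprasp2, with a limma P of 0.0519 and 0.0376.

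The pair kept nearly the same proportion in all 8 rats, with Gprasp1 between 29.2% and 33.5% of their reads. Gprasp1 made up 31.5% ± 1.49 of the reads of the pair in controls and 31.4% ± 1.45 in the cannabis group (SD, n = 4), a difference of -0.159 percentage points (two-sided exact permutation test, P = 0.857). The likeness of 2 genes was measured as the root mean square difference of their centred log2 totals over the 8 libraries, among the 3654 symbols with a mean of at least 100. The 3 symbols most like Gprasp1 were Hint1 (0.05), Nrcam (0.06) and Gprasp2 (0.09), and those most like Gprasp2 were Hint1 (0.06), Gprasp1 (0.09) and Nrcam (0.09). The leading ends of both genes are distal sites on the plus strand of chromosome X of Rnor_6.0, chrX:106313780-106314185 for Gprasp1 and chrX:106363406-106363814 for Gprasp2, with 49220 bases between the intervals.

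Almost all reads of both genes fell on these leading ends, 94.8% for Gprasp1 and 98.1% for Gprasp2. The leading Gprasp1 site had 341 ± 44.1 normalized counts in controls and 429 ± 60.2 in the cannabis group (SD, n = 4), or 0.33 on the log2 scale (SE 0.25, limma P = 0.206; exact permutation test, P = 0.0857). The remaining 5 Gprasp1 sites had means under 10 normalized counts over the 8 libraries.

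One of these minor sites was the only member site of the 48 with P under 0.01 in limma, against 0.381% of all sites, and against 0.258% of all sites when only lower sites are counted. At P under 0.05 it was still 1 of 48, against 3.03%. Of the 48 site log2 fold changes 27 were above 0, against 50.9% of all sites. It is an exonic site of Gprasp1 at chrX:106312087-106312152, with 1627 bases between it and the leading end downstream. It had 21.2, 8.38, 0.671 and 5.96 normalized counts in air control replicates 1 to 4, from 29, 7, 1 and 3 reads. Cannabis replicates 1, 2, 3 and 5 had 0, 0.664, 1.97 and 0.768, from 0, 1, 2 and 1 reads, and air control replicate 3 lay within their range. The site was lower in the cannabis group, with a log2 fold change of -2.03 (SE 0.71, limma P = 0.00889 and adjusted P = 1.000; exact permutation test, P = 0.0857). The call was lost when any single one of air control replicates 1, 2 and 4 or cannabis replicates 1, 2 and 5 was left out, with a limma P from 0.0151 to 0.0628. Air control replicate 1 gave 29 of the 44 reads, and without it the log2 fold change was -1.47. On the recovered reads the log2 fold change was -3.21 in edgeR, with P of 0.00235, and -3.41 in DESeq2, with P of 0.00271, and with a pseudocount of 5 it was -1.06 in limma, with P of 0.00788.

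As a share of Gprasp1 the same site was 2.58% ± 2.52 in controls and 0.178% ± 0.174 in the cannabis group (SD, n = 4). The test of site usage within genes (limma diffSplice over 57287 sites of genes with at least 2 sites) gave P = 0.0134 and adjusted P = 1.000, and the exact permutation test on the share P = 0.0571. In the diffSplice test 0 of 46 member sites had P under 0.01, against 0.611% of all sites tested, and 2 of 46 had P under 0.05, against 3.35%. The other of these was site 12 of Gnao1, which had 20 reads over the 8 libraries.

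Other minor ends were high in single rats of both groups. At the second Gprasp1 site by reads, air control replicate 1 had 16.8 normalized counts and cannabis replicate 3 had 33.5, while the other libraries had from 0 to 6.91. The second Gprasp2 site was likewise high in air control replicate 1 and cannabis replicate 3, at 24.1 and 35.4, against 1.24 to 9.96 elsewhere. Summed over all sites but the leading one, 16.5% of the Gprasp1 reads of air control replicate 1 (95% Wilson interval 13.4 to 20.1, 78 of 474 reads) and 9.79% of those of cannabis replicate 3 (interval 7.44 to 12.8, 47 of 480 reads) lay off the leading end. In the other 6 libraries this share was from 0.842% to 4.62%. For Gprasp2 the same 2 libraries had 5.12% (interval 3.97 to 6.58) and 4.09% (interval 3.03 to 5.50), and the other 6 from 0.382% to 1.35%. Minor Gprasp ends were therefore most frequent in 1 rat of each group. The Gprasp1 share off the leading end was 6.12% ± 7.03 in controls and 4.18% ± 4.08 in the cannabis group (SD, n = 4; exact permutation test, P = 0.714). The intervals cover counting error only.

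**Figure D3:**
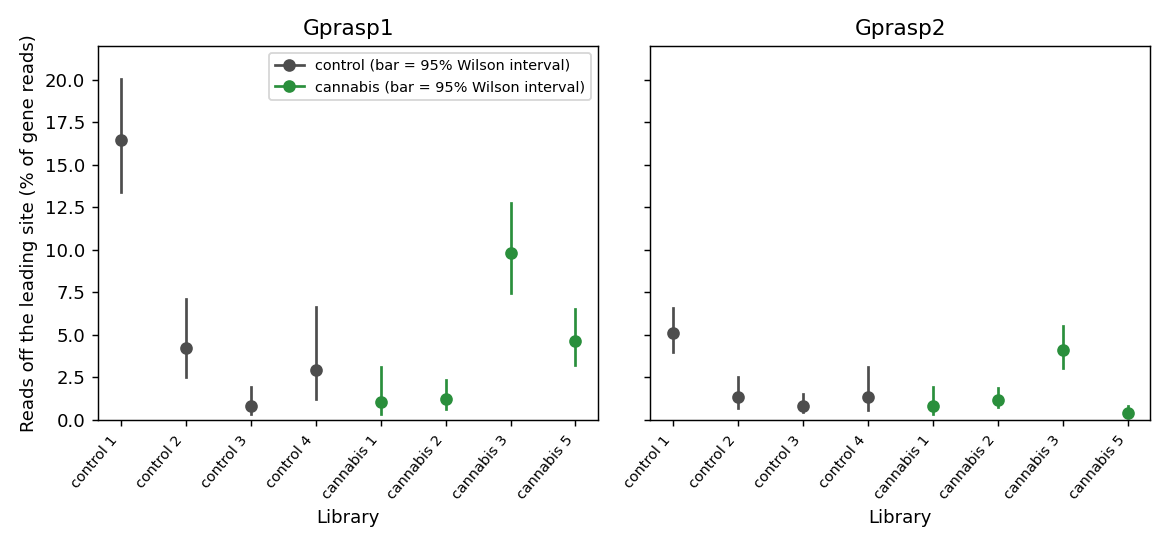
Percent of the reads of Gprasp1 (left) and Gprasp2 (right) that fell on sites other than the leading one, per library, with 95% Wilson intervals as bars. Air control replicate 1 (16.5% and 5.12%) and cannabis replicate 3 (9.79% and 4.09%) stand above the other 6 libraries in both genes.

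Cnrip1, which binds the C-terminal tail of CB1 and tempers its signalling, varied least of the 10, with a coefficient of variation of 7.83% over the 8 libraries. It had 368, 390.3, 434 and 423 normalized counts in controls and 452, 473, 427 and 438 in the cannabis group. The groups overlapped only through air control replicate 3 and cannabis replicate 3. The means were 404 ± 30.5 and 447 ± 19.8 (SD, n = 4), or 0.15 on the log2 scale (SE 0.17, 95% interval -0.22 to 0.52, limma P = 0.404; exact permutation test, P = 0.0571). Its leading end, the distal site at chr14:100247208-100247415 on the plus strand, held 97.6% of its reads. The symbols most like it were Atp2b1 (0.06), Arid1b (0.08) and Plcb1 (0.08).

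The arrestins, which uncouple the receptor from its G protein, had no common order across rats. Arrb1 had 299, 317, 372 and 324 normalized counts in controls and 264.5, 347, 274 and 361 in the cannabis group. Its log2 fold change was -0.08 (SE 0.19, 95% interval -0.50 to 0.33, limma P = 0.676; exact permutation test, P = 0.571). Arrb2 had 339, 391, 281 and 451 in controls and 471, 229.8, 277 and 283 in the cannabis group. Its log2 fold change was -0.25 (SE 0.25, 95% interval -0.78 to 0.28, limma P = 0.333; exact permutation test, P = 0.486). The highest Arrb2 values of each group were those of air control replicate 4 and cannabis replicate 1.

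Both genes ended at essentially 1 place. The leading Arrb1 end is a distal site at chr1:164573886-164574188 on the plus strand with 96.5% of its reads, and the single Arrb2 site is an extended distal site, beyond the annotated transcript end, at chr10:57048127-57048441 on the plus strand. Arrb1 was 47.6% ± 6.57 of arrestin reads in controls and 50.5% ± 10.6 in the cannabis group (SD, n = 4), a difference of 2.89 percentage points (exact permutation test, P = 0.657). Single rats ranged from 36.0% in cannabis replicate 1 to 60.2% in cannabis replicate 2.

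Of the Gi/o alpha subunits, Gnai2, an inhibitor of adenylyl cyclase found in most tissues, took the largest share in every library, between 51.9% and 74.1% of Gi/o alpha reads. The Gi/o alpha sum was 2910.1 ± 204 normalized counts in controls and 3081 ± 292 in the cannabis group (SD, n = 4; exact permutation test, P = 0.4). Gnao1, the Go subunit that neurons use to close calcium channels through beta-gamma, was 28.8% ± 8.66 of the sum in controls and 23.0% ± 8.77 in the cannabis group, a difference of -5.89 percentage points (exact permutation test, P = 0.371). The difference was -2.71 without air control replicate 1, -3.10 without cannabis replicate 1, -9.46 without air control replicate 4 and -9.56 without cannabis replicate 3. Gnaz, a subunit that resists pertussis toxin, was 8.87% ± 2.19 and 8.55% ± 2.32. Gnai1 was 1.76% ± 0.449 and 1.46% ± 0.329, and Gnai3 0.792% ± 0.319 and 0.881% ± 0.215 (SD, n = 4 throughout, controls first).

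Gnao1 varied most between rats among the well-read members, 2.77 times from the lowest to the highest library. It had 1127, 1012, 782 and 477 normalized counts in controls and 406, 749, 1094 and 595 in the cannabis group. The lowest values were those of cannabis replicate 1 and air control replicate 4, and the group ranges largely coincided. The means of 849 ± 287 and 711 ± 291 (SD, n = 4) gave a log2 fold change of -0.27 (SE 0.32, 95% interval -0.96 to 0.41, limma P = 0.404; exact permutation test, P = 0.514). Leaving out cannabis replicate 1 brought this value nearest to 0, at -0.04. Without cannabis replicate 2, 3 or 5 it was -0.33, -0.51 and -0.22, and without air control replicate 1, 2, 3 or 4 it was -0.11, -0.17, -0.29 and -0.53.

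Much of this spread lay in the 2 best-read of the 14 Gnao1 ends. The leading Gnao1 site, at chr19:11512425-11512554 on the minus strand, held 53.1% of its reads, and the second, further downstream at chr19:11512204-11512327 with 97 bases between them, held 21.5%. Both are extended distal sites. The leading site had 520.5, 441.7, 494.8 and 270.1 normalized counts in air control replicates 1 to 4. Cannabis replicates 1, 2, 3 and 5 had 198.7, 437.1, 592.4 and 318.0 there. Like the total, the leading site was lowest in cannabis replicate 1 and air control replicate 4. Its log2 fold change was -0.23 (SE 0.32, limma P = 0.485; exact permutation test, P = 0.686). The second site had 357, 366, 83.9 and 97.3 normalized counts in air control replicates 1 to 4 and 84.4, 75.1, 301 and 62.2 in cannabis replicates 1, 2, 3 and 5. It was thus at 301 or more in 3 libraries, 2 controls and 1 cannabis library, and at 97.3 or less in the other 5.

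Counted against the leading site, the second Gnao1 end had 40.7% of the reads of the pair in air control replicate 1 (95% Wilson interval 37.9 to 43.5), 45.3% in replicate 2 (interval 41.6 to 49.1) and 33.7% in cannabis replicate 3 (interval 30.7 to 36.8). Air control replicate 4 and cannabis replicate 1, with low levels of both sites, had 26.5% (interval 20.7 to 33.3) and 29.8% (interval 24.3 to 36.1). Air control replicate 3 and cannabis replicates 2 and 5 had 14.5%, 14.7% and 16.4%. The differences between rats of 1 group exceeded counting error, while the group means, with a difference of -8.11 percentage points, did not differ beyond the spread (exact permutation test, P = 0.4). The level of the site had a log2 fold change of -0.79 (SE 0.50, limma P = 0.131; exact permutation test, P = 0.2). It was -0.46 and -0.45 without air control replicates 1 and 2, and -1.29 without cannabis replicate 3, with a limma P of 0.0142. The third Gnao1 site by reads held 13.4%, with 95.7 ± 40.7 normalized counts in controls and 103 ± 33.3 in the cannabis group (SD, n = 4; exact permutation test, P = 0.771).

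**Figure D4:**
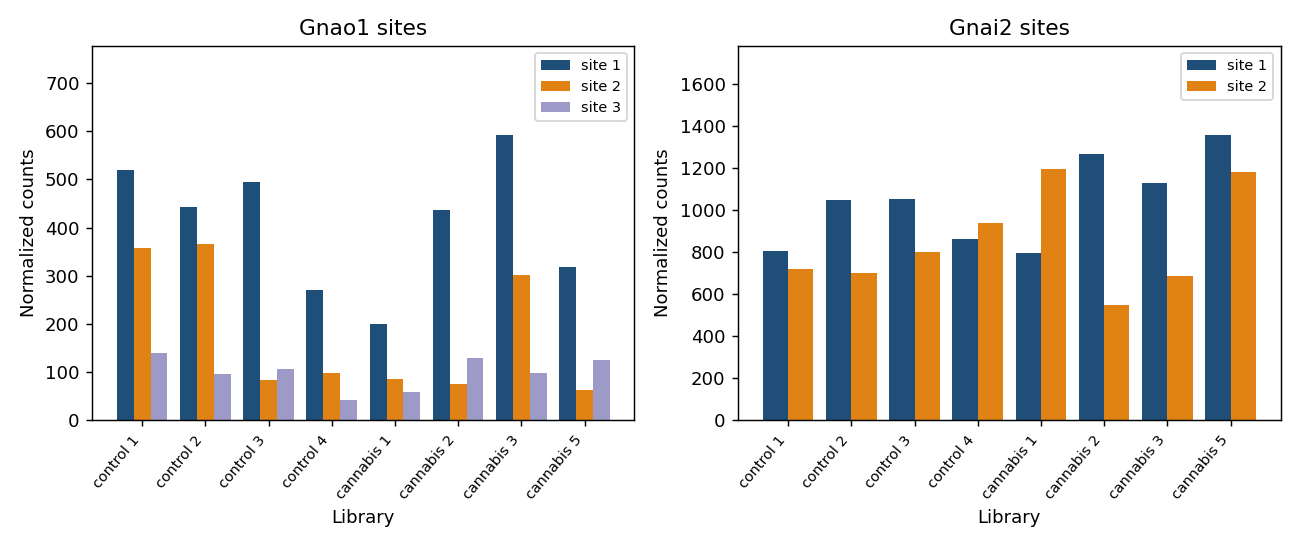
Normalized counts in each library at the 3 leading Gnao1 sites (left) and at both Gnai2 sites (right). Gnao1 site 2 is at 301 or more in air control replicates 1 and 2 and in cannabis replicate 3, and Gnai2 site 2 exceeds site 1 in air control replicate 4 and cannabis replicate 1.

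Gnai2 was read at 2 exonic ends on the minus strand, and both were strong. The leading end, at chr8:116370723-116370760, held 56.6% of its reads, and the other, upstream at chr8:116371146-116371199 with 385 bases between them, held 43.4%. The upstream end took 47.1%, 40.1%, 43.2% and 52.2% of Gnai2 reads in air control replicates 1 to 4, and 60.0%, 30.2%, 37.8% and 46.5% in cannabis replicates 1, 2, 3 and 5. It exceeded the downstream end only in air control replicate 4 and cannabis replicate 1. The means of 45.6% ± 5.23 and 43.6% ± 12.8 did not differ beyond the spread (SD, n = 4; exact permutation test, P = 0.771).

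The Gnai2 total was 1523, 1749, 1848 and 1799 normalized counts in controls and 1992, 1816, 1814 and 2536 in the cannabis group. Cannabis replicate 5 stood above all other libraries, and cannabis replicates 2 and 3 lay within the control range. The log2 fold change was 0.23 (SE 0.19, 95% interval -0.18 to 0.63, limma P = 0.251; exact permutation test, P = 0.114). The symbols most like Gnai2 were Hs6st2 (0.09), Myl12b (0.09) and Vamp2 (0.10).

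Gnaz, read at 1 exonic end at chr20:14593068-14593100 on the minus strand, had 199, 269, 241 and 314 normalized counts in controls and 330.3, 242, 238 and 226 in the cannabis group. Its group means of 256 ± 48.3 and 259 ± 48.0 (SD, n = 4) were the closest of the 10, with a log2 fold change of 0.02 (SE 0.21, 95% interval -0.44 to 0.48, limma P = 0.923; exact permutation test, P = 0.943). As with Arrb2, the highest value of each group was in air control replicate 4 and cannabis replicate 1.

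The remaining inhibitory subunits were read too thinly for firm statements. Gnai1 had 63.6, 55.1, 58.4 and 29.8 normalized counts over 7 sites in controls and 36.0, 55.1, 48.2 and 39.2 in the cannabis group. Its log2 fold change was -0.17 (SE 0.30, 95% interval -0.81 to 0.46, limma P = 0.57; exact permutation test, P = 0.429). Its leading site held 39.6% of its reads and had 23.4 ± 9.83 and 14.3 ± 9.11 normalized counts (SD, n = 4), or -0.80 on the log2 scale (SE 0.52, limma P = 0.137; exact permutation test, P = 0.229). Gnai3 had 21.2, 34.7, 28.2 and 9.93 in controls and 21.1, 34.5, 27.6 and 24.6 in the cannabis group. Its log2 fold change was 0.30 (SE 0.38, 95% interval -0.53 to 1.12, limma P = 0.453; exact permutation test, P = 0.686). The lowest values of Gnai1 and Gnai3 in controls were those of replicate 4, from 15 and 5 reads. Sites 2 and 3 of Gnai1 held 23.9% and 13.2% of its reads, and sites 1 and 2 of Gnai3 held 61.5% and 16.2%.

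The likeness measure set the other members beside different genes. The nearest symbol to Arrb1 was LOC100911395 (0.09), and the nearest to Arrb2 was Pc (0.08). Gnao1 lay nearest to Adgrv1 (0.12), and Gnaz lay nearest to Rtel1 (0.10). For the thinly read Gnai1 and Gnai3 the nearest, LOC103691527 and Ube2v2, lay farther off, at 0.13 and 0.14. No member other than the Gprasp pair was among the 3 symbols nearest to another member. Gnai1 and Gnai3 could not be, since their means were under the minimum of 100 for a neighbour.

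Air control replicate 4 and cannabis replicate 1 thus stood at the same end of the range in several members. They had the lowest pair of values of Gnao1 and Gnai1, and of Gprasp2 (743 in each), and the highest pair of Arrb2, of Gnaz and of the upstream share of Gnai2. Outside the members, the genes listed as G beta and gamma subunits summed to 5048 and 6202 normalized counts in these libraries, air control replicate 4 first. In the other 6 the sum was between 3298 and 3887. Gnb1 (2230 and 2757) and Gng3 (1638 and 2378) were highest in these libraries. Gng10 (71.5 and 67.1) was lowest in them, so the list did not move as a whole. The part of depth in this pattern was not tested.

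Other genes of the pathway were taken from 6 lists with 49 measured genes. None of the 49 totals had P under 0.01 in limma, by edgeR or by DESeq2, against 0.278% of all totals in limma. At P under 0.05 there was 1 of 49 in limma, against 2.41% of all totals. It was Gng2, a gamma subunit, with 167 ± 29.3 normalized counts in controls and 228 ± 31.9 in the cannabis group (SD, n = 4) and a log2 fold change of 0.45 (SE 0.21, limma P = 0.0483 and adjusted P = 0.999; exact permutation test, P = 0.0571). Of the 49 log2 fold changes 26 were above 0, against 56.4% of all totals, and their median was 0.02, against 0.05.

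The 9 other G alpha subunits were led by Gnas, the stimulatory subunit, at 7824 ± 1652 and 9330 ± 2560 normalized counts (log2 fold change 0.23; exact permutation test, P = 0.371), and 5 of 9 were above 0. Among the 15 genes of the beta and gamma list Gnb1 was the highest, at 1542 ± 485 and 1793 ± 651. Its log2 fold change was 0.21 (exact permutation test, P = 0.571), and 9 of 15 were above 0. The receptor kinases, which mark active receptors for arrestin, were led by Grk2 at 193 ± 70.3 and 219 ± 98.4 (0.17; exact, P = 0.714), the only 1 of 6 above 0. Proteins that load or hold G alpha were led by Ccdc88a at 325 ± 49.3 and 302 ± 46.3 (-0.11; exact, P = 0.543), with 4 of 8 above 0. Relatives of the Gprasp proteins were led by Armcx2 at 371 ± 59.2 and 382 ± 60.3 (0.05; exact, P = 0.714), with 5 of 6 above 0. Arrestin-domain proteins and the cone arrestin were led by Txnip at 171 ± 121 and 149.8 ± 49.6 (-0.03; exact, P = 0.857), with 2 of 5 above 0. Values are means ± SD of 4 controls and then of 4 cannabis-exposed rats, and P is from the two-sided exact permutation test.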

How the data were processed

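The authors quality-filtered the reads (FASTX Toolkit), removed the Ts at their start, aligned them with TMAP (genome Rnor_6.0), grouped nearby read ends as APA sites and named genes with Cuffcompare. One file per library was deposited. The deposited values are a signal per site, the reads on the site divided by the DESeq2 size factor. Divided by the smallest step of its library, every value came out whole to within 2.4e-05 reads, which gave the reads. Files were joined by row order, after a check that the symbols matched. Positions and location classes, used for 11 of the 48 sites, came from the site tables published with the study, matched by symbol and the 8 values.

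Sites, gene totals (sums by symbol) and site usage (diffSplice) were fitted over the whole table with limma 3.58.1 (R 4.3.3) on log2(value + 1), with a trend for levels, no covariates and P under 0.01, as the study calls sites. Adjusted P is Benjamini-Hochberg over all features of a fit. Single values had a two-sided exact permutation test, whose smallest P is 0.0286. Sites described one by one lead their gene, hold at least 10% of its reads, have P under 0.01 or are listed as differential by the study. Outside this rule, Gprasp1 site 2, Gprasp2 site 2 and Gnao1 site 12 were added after their values were seen. Of the pathway lists, the highest gene of each and those with P under 0.01 were to be named, and Gng2 was added after its values were seen. Members and lists were chosen with earlier results of these data known. The scripts were tested on simulated data. The labels give 1 library per replicate number and name no pooling, so P measures the spread between these libraries, each taken as 1 rat. Python 3.11.15, scipy 1.17.1, edgeR 4.0.16 and DESeq2 1.42.0 were also used.

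Sites had at least 16 reads and a median of 34. Alternatives were a pseudocount of 0.5 or 5, a filter at a mean of 10 normalized counts, blocking on replicate number, leaving out single libraries, equal totals, no trend, edgeR and DESeq2 on recovered reads and P under 0.05. Added later was leaving out air control replicate 4 and cannabis replicate 1 together.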

Additional observations from a re-analysis of the deposited data

Results flagged for a closer look

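Of 76 groups of 4 rats examined with Dixon's test, 5 had 1 rat far from the others, and chance flags about 1 in 20 groups. Gnaz in cannabis replicate 1 was 330.3 normalized counts, where the other cannabis-exposed rats had from 226 to 242. Gnao1 site 2 in cannabis replicate 3 was 301.1 normalized counts, against 62.2 to 84.4 in the other cannabis-exposed rats. Gnai3 site 2 in air control replicate 1 was 2.19 normalized counts, against 5.96 to 6.04 in the other controls, a difference of few reads. The Gprasp1 share of Gprasp reads in cannabis replicate 5 was 29.2%, against 31.9% to 32.4% in the other cannabis-exposed rats. The share of Gprasp2 reads off the leading end in air control replicate 1 was 5.12%, against 0.848% to 1.35% in the other controls.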

How the results depend on the processing

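In 17 alternatives, 0 of the 170 values for the 10 gene totals had P under 0.01, with a lowest P of 0.0315 (Gprasp2 without cannabis replicate 1). The number of member sites with P under 0.01, 1 in the reported fit, was 0 with a pseudocount of 0.5, with a mean of at least 10 normalized counts (which leaves that site out), with the replicate block, without the trend and without air control replicate 4 and cannabis replicate 1 together, and from 0 to 1 with single libraries left out. The site stayed lower in each alternative that tested it, with log2 fold changes between -2.72 and -1.47 when single libraries were left out, and its P stayed under 0.01 with a pseudocount of 5, equal totals, edgeR and DESeq2. For site usage the count of 0 became 2 at P under 0.05 and ranged from 0 to 2 with single libraries left out, and the pathway count of 0 became 1 at P under 0.05. Directions that no test had called changed sign as follows. The difference in the Gprasp1 share of Gprasp reads became 0.165 percentage points with leading sites only and 0.502 with the replicate block, and ranged from -0.716 to 0.557 with single libraries left out. The Arrb1 share of arrestin reads became -0.885 with the replicate block and ranged from -0.343 to 7.72. With the replicate block the log2 fold change was -0.02 for Gnai3, -0.31 for Gnao1 site 3, -0.10 for Gnai3 site 1, -0.06 for Gnai1 site 3 and -0.23 for Gnai1 site 4. Gnaz became -0.03 with edgeR and with DESeq2. With single libraries left out the ranges were -0.05 to 0.52 for Gnai3, -0.10 to 0.13 for Gnaz, -0.04 to 0.33 for Gnai2 site 2, -0.47 to 0.06 for Gnao1 site 1, -0.20 to 0.41 for Gnao1 site 3, -0.07 to 0.73 for Gnai3 site 1 and -0.04 to 1.04 for Gnai1 site 4. The cause was not tested. The labels state no pairing of libraries with the same replicate number, so the replicate block was not used for the reported values. The deviations of such libraries had correlations of -0.158, 0.043 and -0.04 over 3 pairs. So few pairs cannot decide whether these libraries were handled together. Of the 48 sites 31 had a mean under 10 normalized counts. How large a difference could be detected at such sites was not tested. A minor site without a call was not shown to be equal between the groups.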
